A study of Danio rerio with 6 samples.

Results

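The nucleosome remodelling and deacetylase complex, NuRD, was followed through 10 of its subunit genes in zebrafish larvae that lack intact Ikaros: *chd4a*, *chd4b*, *hdac1*, *mta1*, *mta2*, *mta3*, *mbd2*, *mbd3a*, *rbb4* and *gatad2ab*. The genes were chosen by name, as the subunits of the main partner complex of Ikaros, and the 10 were found among the 32105 genes of the count table. All 10 passed the filter on low counts, as did 17828 genes in all. Of the 10, *mta3* was 1.32-fold higher in wild-type than in mutant larvae and passed the test, while the other 9 differed from wild type by factors between 0.882 and 1.109 and did not pass it.

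NuRD joins 2 enzymes in one assembly, an ATP-driven motor of the Chd family that slides nucleosomes and a histone deacetylase that removes acetyl groups from histone tails. Mta proteins form the scaffold that holds and activates the deacetylase, Rbbp4 (listed as *rbb4*) is a WD40-repeat protein that grips histones, Mbd2 and Mbd3 are alternative methyl-CpG-binding-domain subunits, and Gatad2 proteins bridge the Mbd and Chd subunits. NuRD does not read a DNA sequence itself and is brought to genes by transcription factors. In mouse lymphocytes, Ikaros, the zinc finger factor encoded by *Ikzf1*, is one of the best known of these partners, and Chd4, once called Mi-2β, was purified with it.

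The 6 libraries came from 3 larvae homozygous for the IT325 line (allele t24980) and from 3 homozygous wild-type siblings, at 5 days post fertilisation, and the labels give a mixture of wild-type strains as the background of both groups. IT325 is a chemically induced nonsense allele of *ikzf1* whose predicted protein keeps the 4 DNA-binding zinc fingers and lacks both C-terminal fingers, through which Ikaros proteins pair, so it is a truncation and not a full loss of the protein. Libraries of a second line, fr105, were not analysed here. RNA was read from poly-A-selected transcripts of, per the labels, the whole body. The study's methods describe individual fish as the samples, and the p-values measure the spread between these 6 libraries.

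The libraries held 37390073 to 53279243 counts. Log values of the libraries correlated at 0.969 to 0.981 within a group and at 0.899 to 0.940 between groups, and no library stood apart from its group. Levels are counts of a gene per megacount (CPM) after TMM scaling, in which a trimmed average of the ratios between libraries sets 1 factor per library. The labelled tissue was not matched by most of its markers. Under 1 CPM lay 12 of 15 skeletal muscle genes, 8 of 9 neural genes and 5 of 5 retina and lens genes. *tnnt3a*, *cryaa*, *rho* and *gnat1* were at 0 in every library, while *tnnt3b* averaged 3.72 CPM. So did 8 of 11 epidermis, 5 of 10 liver, 5 of 8 exocrine pancreas, 4 of 5 cartilage and notochord and 7 of 11 nephron genes lie under 1 CPM. Yet *icn* of the epidermis list averaged 929.1 CPM and *slc20a1a* of the nephron list 151.6 CPM. The middle gene of the neutrophil list stood at 2420 CPM. The stated age was taken as given and was not tested, and the word larvae follows it. Some levels bear on it, but none decides it. *hbae1.1*, by its name an embryonic globin gene, was at 0 in every library. It was the only such gene seen, since *hbbe1.1* and *hbbe2* were not matched to a row. A count of 0 could also arise where reads match several genes equally well. *hbaa1* averaged 11270 CPM over the libraries. The study uses it to mark mature erythrocytes of adult kidney marrow, and also as an erythroid-lineage gene in larvae of this age. In the study it is therefore not particular to adults. The B cell gene *ighm* averaged 328.7 CPM in the wild-type group. Blood cell lists differed between the groups. Of 15 erythroid genes tested 15 rose, of 6 B cell genes 6 fell, and of 13 T cell genes 11 fell (edgeR's adjusted p under 0.05). In bulk RNA, fewer cells of a type and less RNA per cell cannot be told apart.

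The mutated gene itself was higher in the mutants. *ikzf1* reached 1167, 1767 and 1149 CPM in mutant larvae, far above the 276.1, 306.4 and 299.9 CPM of wild type. The log2 fold change was 2.21 (SE 0.174, 95% interval 1.80 to 2.62, edgeR's adjusted p = 0.000117). The study reports a rise of *ikzf1* in IT325 mutants from its own RNA-seq at this age. Those are the data used here, so the shared direction is not separate evidence. With no loss of the transcript to look for, the labels were taken as given.

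Among the motor subunits, the paralogs *chd4a* and *chd4b* had fold changes of opposite sign and neither passed the test. Chd4 is the ATPase of the complex. *chd4a* measured 145.6, 155.3 and 166.2 CPM in mutants against 166.6, 170.2 and 187.7 CPM in wild type. Its highest mutant library lay just under its lowest wild-type library, and the log2 fold change was −0.17 (SE 0.0809, 95% interval −0.35 to 0.02, edgeR's adjusted p = 0.146). *chd4b* measured 204.9, 217.0 and 215.8 CPM in mutants against 190.1, 204.7 and 195.0 CPM in wild type. The groups again did not overlap, though mutant replicate 1 and wild-type replicate 2 were almost level, and the log2 fold change was 0.11 (SE 0.0677, 95% interval −0.04 to 0.27, edgeR's adjusted p = 0.232).

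The deacetylase subunit *hdac1*, which supplies the second enzymatic activity, gave 161.3, 168.2 and 173.7 CPM in mutants against 152.9, 156.9 and 174.3 CPM in wild type. Its groups overlapped, since wild-type replicate 3 exceeded every mutant library. Averages were 167.8 ± 6.20 CPM and 161.4 ± 11.4 CPM (SD, n = 3 each), with a log2 fold change of 0.06 (95% interval −0.12 to 0.23, edgeR's adjusted p = 0.609). The sign of this small difference turned with library totals alone as the scale, at −0.05.

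The scaffold genes held the single call. *mta3* gave 57.63, 57.78 and 52.92 CPM in mutants but 73.97, 74.2 and 74.15 CPM in wild type. All 3 mutant larvae lay well below all 3 wild-type larvae, whose values were almost the same. Averages of 56.1 ± 2.76 and 74.1 ± 0.122 CPM resulted (SD, n = 3 each), and *mta3* fell by 0.40 on the log2 scale (SE 0.0686, 95% interval −0.56 to −0.25, edgeR's adjusted p = 0.00246). The wild-type coefficient of variation, 0.165%, was smaller than counting error alone would give for this gene, so the wild-type SD understates the error of a level. That counting error was largest, at 2.11%, in mutant replicate 3 with 2250 counts. It was somewhat smaller in the wild-type libraries, with 2825 to 4101 counts. In human cells MTA3 is the scaffold form known for its partnership with BCL6 in germinal centre B cells.

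The other scaffold genes did not pass. *mta2* measured 51.3, 57.9 and 56.45 CPM in mutants against 57.68, 59.13 and 70.95 CPM in wild type, where replicate 3 was well above the rest. The groups overlapped by a small margin, and the log2 fold change was −0.18 (SE 0.0974, 95% interval −0.40 to 0.04, edgeR's adjusted p = 0.185). *mta1* measured 36.79, 36.66 and 36.11 CPM in mutants against 41.95, 35.87 and 39.74 CPM in wild type. The mutant values lay within the wild-type range, and the log2 fold change was −0.10 (95% interval −0.29 to 0.09, edgeR's adjusted p = 0.374).

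The methyl-CpG-binding-domain subunits showed no called difference. Mbd2 binds methylated DNA, and Mbd3 of mammals has largely lost that binding. *mbd2*, the member with the fewest counts (542 to 872 per library), gave 16.61, 14.7 and 12.75 CPM in mutants against 14.32, 16.77 and 15.77 CPM in wild type. Here the mutant libraries were the more scattered, and the log2 fold change was −0.09 (95% interval −0.37 to 0.19, edgeR's adjusted p = 0.615). It was 0.01 without mutant replicate 3. *mbd3a* gave 47.4, 48.32 and 44.93 CPM in mutants against 46.19, 41.84 and 46.56 CPM in wild type. The groups overlapped, with a log2 fold change of 0.06 (95% interval −0.11 to 0.24, edgeR's adjusted p = 0.559) that was −0.04 with library totals alone as the scale.

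The histone-binding and bridging subunits had small positive log2 fold changes without a call. *rbb4* measured 68.79, 75.33 and 75.48 CPM in mutants against 62.47, 66.11 and 73.15 CPM in wild type. Wild-type replicate 3 fell within the mutant range, and the log2 fold change was 0.12 (95% interval −0.07 to 0.31, edgeR's adjusted p = 0.289). *gatad2ab* measured 35.15, 37.77 and 38.01 CPM in mutants against 34.41, 32.38 and 33.21 CPM in wild type. These groups did not overlap, but the closest libraries were less than 1 CPM apart, and the log2 fold change was 0.15 (SE 0.0761, 95% interval −0.02 to 0.32, edgeR's adjusted p = 0.164).

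**Figure D1:**
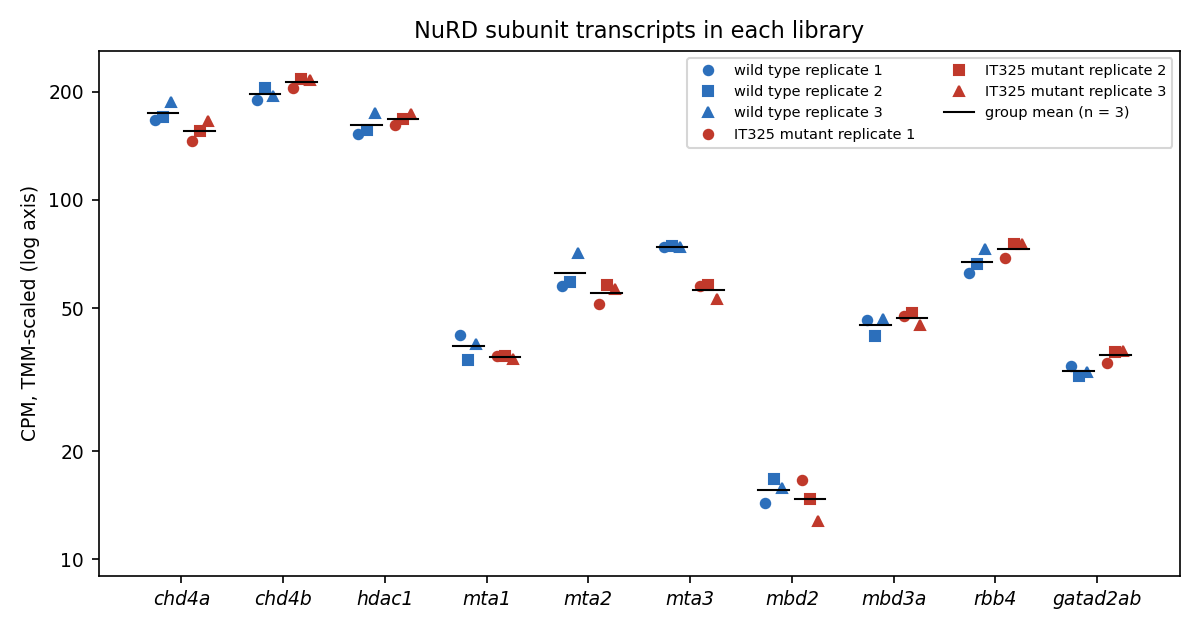
Level of each NuRD subunit transcript in CPM after TMM scaling (vertical log axis) in the 3 wild-type (blue) and 3 IT325 mutant (red) libraries, with a bar at each group mean and a marker shape for each replicate number. Only for *mta3* are the groups widely separated, at 52.92 to 57.78 CPM in mutants against 73.97 to 74.20 CPM in wild type.

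The members were set beside all genes, though counts among 10 genes are too small to set them apart from these shares. With edgeR at an adjusted p under 0.05, 1 of 10 members was called, against 33.9% of all genes tested and 41.0% of the 8661 genes with a mean of at least 10 CPM. The members called higher numbered 0 (0 at an unadjusted p under 0.05 and 0 with DESeq2), where 17.5% of all genes and 21.2% of the better counted genes were called higher. The members called lower numbered 1, where the shares were 16.4% and 19.7%. The groups did not overlap for 4 members (*chd4a* and *mta3* lower, *chd4b* and *gatad2ab* higher), against 50.5% of all genes and 56.0% of the better counted genes. The median log2 fold change was −0.02 for the members and −0.01 for all genes. The median size of the change was 0.12 for the members, 0.36 for all genes and 0.25 for genes of at least 10 CPM. The middle member stood at 62 CPM, above that floor, and genes matched to the members in level were not compared.

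For the 9 members without a call, the 95% intervals spanned log2 values from −0.40 to 0.32, which are factors of 0.756 to 1.251. These are the outer bounds over the 9 genes, and each gene's own interval, given above, is narrower. True differences within a gene's own interval are not excluded for that gene, and a missed threshold does not show equal levels. Over all 6 libraries, the highest value of a member exceeded its lowest by a factor of 1.14 to 1.402.

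**Figure D2:**
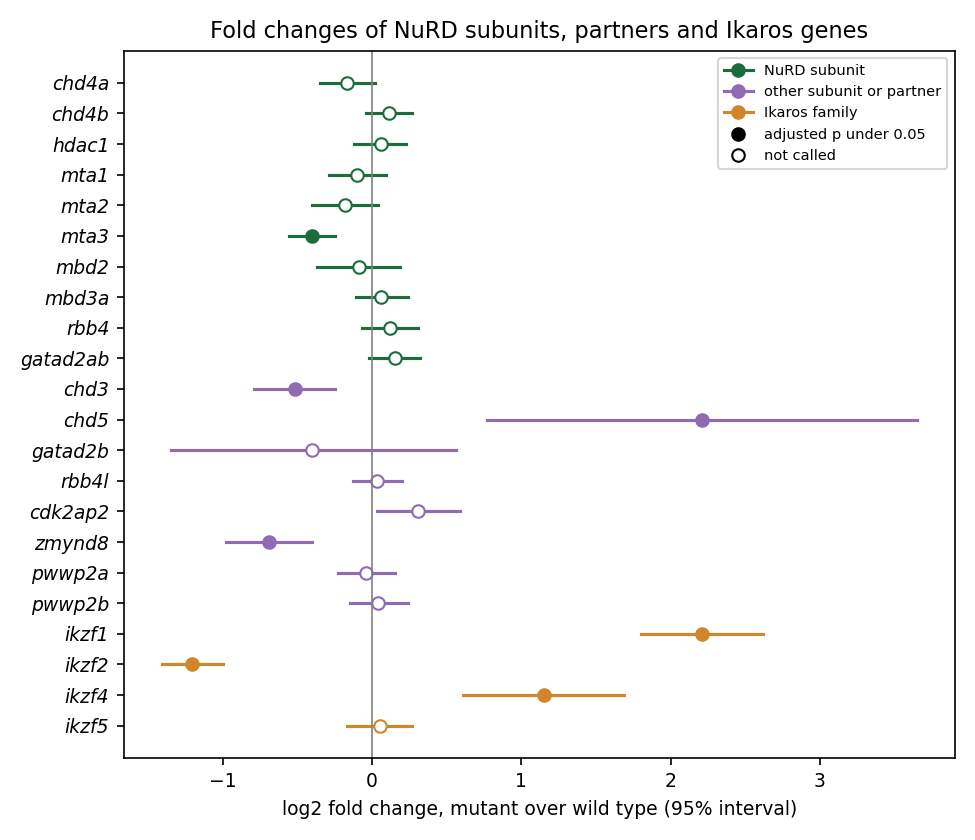
Log2 fold change of mutant over wild type with its 95% interval (horizontal axis) for the 10 NuRD members (green), other subunits and partners (purple) and Ikaros family genes (orange), where filled points had an adjusted p under 0.05 in edgeR and open points did not. Of the members, *mta3* at −0.40 is the filled point, while *ikzf1* stands at 2.21 and *ikzf2* at −1.21.

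The summed output of the 10 genes was compared next. Members with many counts, such as *chd4b* at a mean of 204.6 CPM, weigh more in it than *mbd2* at 15.15 CPM. The sum therefore does not measure the complex. After TMM scaling the sum was 825.6, 869.0 and 872.4 CPM in mutants against 840.6, 858.2 and 910.5 CPM in wild type. The ranges overlapped in part, with mutant replicate 1 lowest and wild-type replicate 3 highest, and the means, 855.7 ± 26.1 and 869.7 ± 36.4 CPM (SD, n = 3 each), gave an exact permutation p of 0.6, two-sided, where 3 against 3 libraries cannot go below 0.1. With the plain library total as denominator the sums were 826 ± 59.3 and 901 ± 43.3 CPM (ratio 0.917, exact permutation p = 0.2), and the top 50 genes by level made up 29.3% ± 1.16 of mutant counts and 24.7% ± 0.310 of wild-type counts. Without those 50 genes in the total the log2 ratio was −0.03 (exact permutation p = 0.7). The same scale matters for all genes: with library totals alone the median over all genes was −0.11 on the log2 scale and 39.35% of the calls were higher in mutants, against −0.01 and 51.7% with TMM.

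Read against its partner complex, the *ikzf1* transcript differed in proportion. The counts of *ikzf1* per 100 summed member counts, a ratio that no scaling factor enters, were 141.4, 203.3 and 131.7 in mutants and 32.85, 35.71 and 32.94 in wild type. Every mutant library lay above every wild-type library, by a ratio of means of 4.69 (exact permutation p = 0.1, the smallest possible here). This ratio was added after the data had been seen. It restates the rise of *ikzf1* beside the overlapping member sums and is not separate evidence. No gene length enters it, so its size is not a ratio of molecules.

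Shares among paralogs were taken within each library, where they do not depend on scaling either. The *chd4a* share of the *chd4a* and *chd4b* counts was 41.55, 41.72 and 43.50% in mutants and 46.71, 45.40 and 49.05% in wild type. No mutant library reached the lowest wild-type share, and the means, 42.3% ± 1.09 and 47.05% ± 1.85 (SD, n = 3 each), differed by −4.80 percentage points (exact permutation p = 0.1, 0.267 after Benjamini-Hochberg adjustment over 8 shares). A library's own 95% Wilson interval was narrower than this gap, at 40.81 to 42.29% in mutant replicate 1, and covers counting error only.

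The balance of the scaffold genes was compared next. With 3 against 3 libraries the exact permutation p cannot fall below 0.1, so no share could pass a threshold of 0.05. The *mta3* share of the summed *mta* counts was 39.55, 37.93 and 36.38% in mutants and 42.61, 43.85 and 40.12% in wild type. The groups did not overlap, although mutant replicate 1 and wild-type replicate 3 were close, and the difference was −4.24 percentage points (exact permutation p = 0.1, adjusted 0.267). The shares of *mta1* (24.7% ± 0.598 against 22.3% ± 1.63) and *mta2* (37.3% ± 1.89 against 35.5% ± 2.63) overlapped between groups, with exact permutation p of 0.2 and 0.4. The *mbd2* share of the *mbd2* and *mbd3a* counts was 23.8% ± 1.96 in mutants and 25.9% ± 2.52 in wild type, also overlapping (exact permutation p = 0.4).

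**Figure D3:**
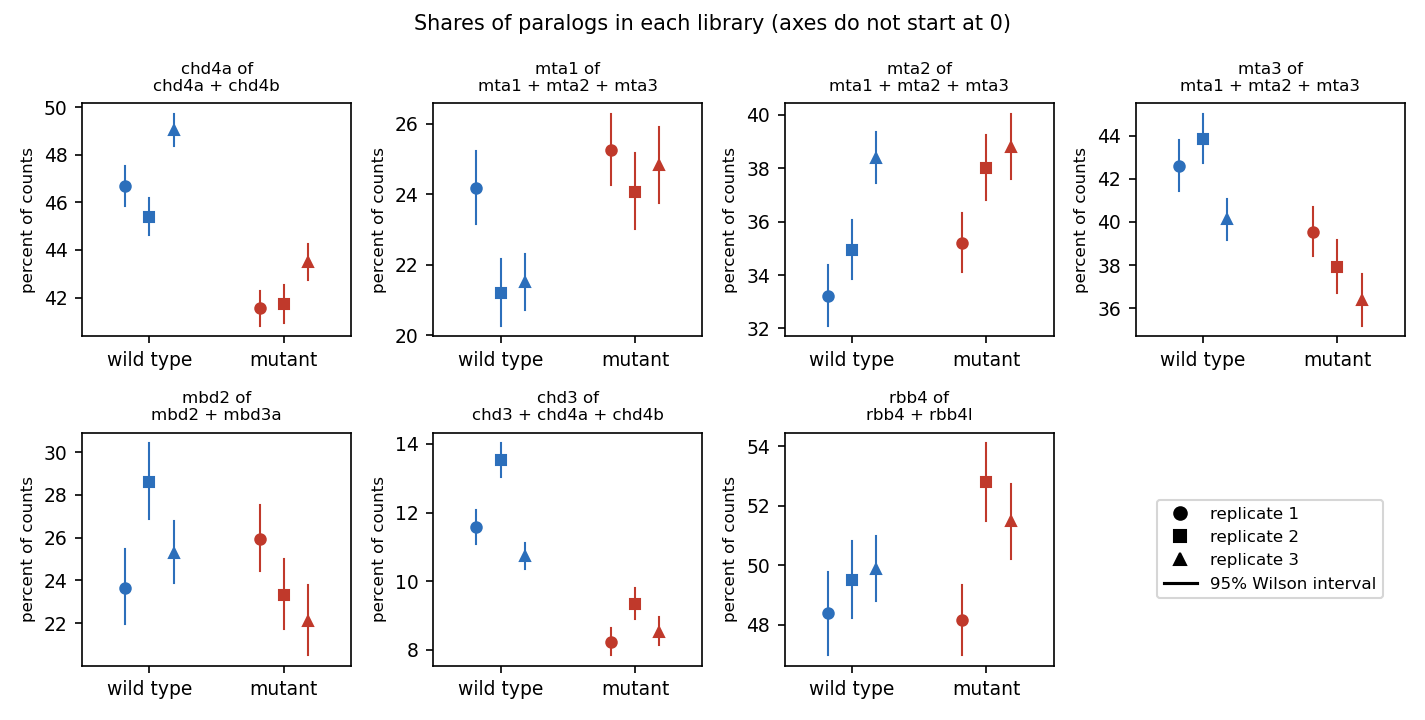
Share of each paralog in the summed counts of its family (vertical axes in percent, not starting at 0) in each wild-type (blue) and mutant (red) library, with 95% Wilson intervals that cover counting error only. The groups are apart for *chd4a* (41.55 to 43.50% against 45.40 to 49.05%), *mta3* and *chd3*, and overlap in the other panels.

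Reads that match close paralogs equally well could be assigned to either or dropped, so the shares of *chd4a* and *chd4b* and of the *mta* genes carry that uncertainty. Counts were reported as made with tool defaults. The featureCounts default does not use strand, though the strand setting itself was not stated. If strand was not used, reads of genes that overlap on opposite strands could not be told apart.

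The *mta3* difference came with the shift in blood cell markers. Summed B cell marker levels were 122.9 to 187.8 CPM in mutants against 823.2 to 881.9 CPM in wild type, and summed T cell levels 247.6 to 341.1 against 986.6 to 1072 CPM. Most of the T cell sum was *ccr9a* (means of 189.2 against 742.4 CPM), which the study also lists for B cells. Summed erythroid levels went the other way, 22150 to 32830 CPM in mutants against 5959 to 9448 CPM in wild type, with *hbae1.1* at 0. Neutrophil genes (4 of 6 higher, 1 lower) summed to 30830 to 32640 against 19270 to 19920 CPM, macrophage genes (3 of 8 higher, 2 lower) to 1795 to 2239 against 2535 to 2739 CPM. The 2 lower macrophage genes, *cd74a* (means of 979.4 against 1539 CPM) and *cd74b* (568.6 against 786.3 CPM), made up most of that sum. Both are listed for B cells too in the study, while *marco*, one of the 3 higher genes, rose by 1.24 on the log2 scale. The part of these lists in the *mta3* difference, or in the paralog shares, was not tested.

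Outside the 10 genes, a list of 11 further or alternative subunits held 9 in the table and 8 tested, of which 1 was higher and 2 lower by edgeR's adjusted p. The third Mi-2 motor, *chd3*, can take the place of Chd4 in the complex. It measured 31.45, 38.32 and 35.61 CPM in mutants against 46.66, 58.61 and 45.96 CPM in wild type, without overlap, and fell by 0.52 on the log2 scale (SE 0.118, edgeR's adjusted p = 0.00969). Its share of the *chd3*, *chd4a* and *chd4b* counts, examined after its values were known, was 8.70% ± 0.569 in mutants and 11.9% ± 1.43 in wild type (exact permutation p = 0.1, adjusted 0.267). The motor gene *chd5*, which in mammals is expressed mainly in neurons and testis, was called higher from very few reads, 22, 27 and 44 counts in mutants against 11, 4 and 5 in wild type. Its log2 fold change of 2.21 had an interval of 0.77 to 3.65 (edgeR's adjusted p = 0.0269), and the call was lost in 4 of the 6 fits that left out 1 library, with adjusted p of 0.0656 and 0.105 when mutant replicate 2 or 3 was omitted and of 0.0802 and 0.0684 for wild-type replicate 2 or 3.

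*zmynd8*, a reader of modified histones that binds NuRD in human cells, gave 12.15, 15.27 and 16.14 CPM in mutants against 23.67, 25 and 21.59 CPM in wild type. The groups were far apart, and it fell by 0.69 on the log2 scale (SE 0.1253, edgeR's adjusted p = 0.00331). The bridge gene *gatad2b* depended on 1 library, at 9.558 CPM in mutant replicate 1 against 29.37 and 21.45 CPM in the other mutants and 26.71, 29.15 and 23.45 CPM in wild type. Its log2 fold change was −0.40 (95% interval −1.35 to 0.56, edgeR's adjusted p = 0.479). The *gatad2ab* share of both bridge genes, added after seeing the data, was likewise 78.62% in that library, 56.26 and 63.92% in the other mutants and 52.63 to 58.62% in wild type, and the difference of 10.4 percentage points was 4.24 without it.

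*rbb4l*, the Rbbp7-like copy of *rbb4*, had a log2 fold change of 0.03 (95% interval −0.13 to 0.20), and the *rbb4* share of the pair, added after seeing the data, was 50.8% ± 2.39 in mutants and 49.3% ± 0.780 in wild type (exact permutation p = 0.4). *pwwp2a* and *pwwp2b*, whose mammalian proteins bind Mta1 and the histone variant H2A.Z, had log2 fold changes of −0.04 (95% interval −0.23 to 0.15) and 0.04 (−0.15 to 0.24). The signs were small and unstable, since *rbb4l* was −0.07 and *pwwp2b* −0.06 with library totals alone as the scale, and *pwwp2a* was 0.01 without mutant replicate 1. *cdk2ap2*, related to a small subunit of the complex, was at 0.31 (95% interval 0.03 to 0.59, edgeR's adjusted p = 0.0872) and passed the threshold without wild-type replicate 3 (0.42, adjusted p = 0.0316). *mbd3b* had 0 to 16 counts per library and was not tested, and *gatad2aa* and *cdk2ap1* were not matched to a row.

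Other Ikaros family genes moved both ways. *ikzf2*, which encodes Helios, stood at 17.92, 20.89 and 20.35 CPM in mutants against 43.62, 48.00 and 44.91 CPM in wild type, and fell by 1.21 on the log2 scale (SE 0.0907, edgeR's adjusted p = 3.59e-05). *ikzf4*, which encodes Eos, was low in all libraries, at 5.344, 4.614 and 4.328 CPM in mutants against 1.545, 2.689 and 2.188 CPM in wild type, and rose by 1.15 (SE 0.236, edgeR's adjusted p = 0.00614). *ikzf5*, which encodes Pegasus, was at 0.05 (95% interval −0.17 to 0.27, edgeR's adjusted p = 0.711), or −0.05 with library totals alone. Over the 3 tested relatives the calls were 1 higher and 1 lower.

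Zinc finger factors known in mammals to bring NuRD to genes had the lowest median among the chromatin lists, −0.52, with 1 of 10 tested genes higher and 4 lower by edgeR's adjusted p. Of the 13 genes of this list in the table, tested or not, 7 had a mean under 1 CPM, and the median rests in part on such a gene. *bcl6aa*, a copy of the B cell repressor gene whose human product works with MTA3, was at 23.82, 27.08 and 26.65 CPM in mutants against 119.0, 130.0 and 137.2 CPM in wild type. That is a fall of 2.32 on the log2 scale (SE 0.0877, edgeR's adjusted p = 1.54e-06). *bcl11ba*, a copy of the T cell commitment factor gene *Bcl11b*, was at 6.289, 8.2 and 4.987 CPM against 14.72, 28.85 and 13.45 CPM, a fall of 1.55 (SE 0.340, edgeR's adjusted p = 0.0139). Its call was lost without mutant replicate 1 or mutant replicate 3, at adjusted p of 0.0574 and 0.0558. The other genes called lower, named after their values were seen, were *bcl11aa* (−1.49, edgeR's adjusted p = 0.00011) and *bcl6ab* (−0.58, adjusted p = 0.00767). *zfpm1*, which encodes Fog1, the partner of Gata1 in red cell and platelet precursors, was at 46.00, 44.49 and 38.10 CPM in mutants against 24.38, 26.06 and 23.78 CPM in wild type, and rose by 0.79 (SE 0.0952, edgeR's adjusted p = 0.000386). Some of these genes are themselves known from lymphoid or erythroid cells, and the part of cell numbers in their differences was not tested.

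Complexes that share subunits or enzymes with NuRD were described in the same way. Across 12 such lists, other subunits and the Ikaros and zinc finger lists included, 49 of 113 genes tested were called by edgeR (43.36%), 16 higher and 33 lower, with a median of −0.09 and a median size of 0.26. The background was 33.9% of all genes and 41.0% of genes of at least 10 CPM, so the share called in either direction was near that of well counted genes. By direction, 17.5% of all genes were called higher and 16.4% lower, and 21.2% and 19.7% of genes of at least 10 CPM. Calls in the lists were thus more often lower than higher, unlike those over all genes. With library totals alone as the scale the split was 12 higher and 41 lower, and 21 were lower when mutant replicate 1 or wild-type replicate 2 was omitted. The SIN3 complex, which also uses Hdac1 and Rbbp4, had 2 of 13 higher and 4 lower, among them its subunit gene *sinhcaf* at 9.37 against 17.8 CPM (fell by 0.93, adjusted p = 0.000413). The SIN3 counts were 0 higher and 6 lower with library totals alone as the scale. They shrank without 1 library, to 2 lower when mutant replicate 1 or 2 or wild-type replicate 2 was omitted, and to 0 higher for mutant replicate 2 or wild-type replicate 1 or 2 and 1 higher for mutant replicate 1 or wild-type replicate 3. In the CoREST complex, another home of Hdac1, 3 of 8 were higher and 1 lower, and *rcor2* was at 12.9 CPM in mutants against 1.35 CPM in wild type (log2 3.22, SE 0.487, edgeR's adjusted p = 0.00307). The NCoR complex had 1 of 7 higher, *tbl1xr1a* (0.37, adjusted p = 0.0122), and 1 lower, *gps2* (−0.22, adjusted p = 0.0489), whose call was lost in all but 4 of 15 alternatives.

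Of 11 other histone deacetylase genes, 1 was higher and 4 lower by edgeR's adjusted p. The class IIa genes split, with *hdac4* at 19.1 against 10.03 CPM (rose by 0.93, adjusted p = 0.000284) and *hdac7a* at 24.0 against 35.65 CPM (fell by 0.57, adjusted p = 0.00579). *hdac5* was lower as well (−0.53, adjusted p = 0.0317), but its call was lost without mutant replicate 1 or 3 or wild-type replicate 1 or 2, at adjusted p of 0.0832 to 0.107. The remaining calls, named after their values were seen, were *hdac9b* (−0.35, adjusted p = 0.0142) and *hdac12* (−0.67, adjusted p = 0.018), both lower. The count of lower genes was 1 without mutant replicate 1 or wild-type replicate 2 and 2 without mutant replicate 2 or wild-type replicate 1, and the count of higher genes was 2 without mutant replicate 3.

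Among other remodellers, 1 of 22 SWI/SNF genes was higher and 7 lower, with *smarcc2*, a core scaffold gene, at 9.18 against 19.2 CPM (fell by 1.06, edgeR's adjusted p = 0.000197). The gene called higher was *dpf3*, named after its values were seen, with a mean of 1.398 CPM (log2 2.69, adjusted p = 0.0066). Of 16 ISWI and other CHD genes 1 was higher and 6 lower, though 2 were lower when mutant replicate 1 or 2 or wild-type replicate 1 or 2 was omitted and 3 without mutant replicate 3. *chd6* fell by 1.29 (13.65 against 33.3 CPM, edgeR's adjusted p = 0.00037) and *chd8* fell by 0.29 (99.0 against 121.4 CPM, adjusted p = 0.0125), while *chd7* rose by 0.31 (174.6 against 141.0 CPM, adjusted p = 0.0335). The call of *chd8* was lost without mutant replicate 2 (adjusted p = 0.0557) and that of *chd7* in 4 of the 6 fits that left out 1 library, at adjusted p of 0.0888 and 0.0823 for mutant replicate 1 or 3 and of 0.065 and 0.0838 for wild-type replicate 1 or 3.

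PRC2, the histone methyltransferase complex that also contains Rbbp4, had 0 of 8 genes higher in edgeR (0 at an unadjusted p under 0.05, 0 with DESeq2) and 3 lower. These were *phf19* (−0.78, adjusted p = 0.00784), *ezh1* (−0.40, adjusted p = 0.0059) and, named after its values were seen, *aebp2* (−0.39, adjusted p = 0.0362). Of the chaperones that use Rbbp4, *chaf1a* was the 1 of 3 called, at 85.8 against 68.3 CPM (rose by 0.33, edgeR's adjusted p = 0.0292), and the call was lost without mutant replicate 1 or 2 or wild-type replicate 1 or 2, at adjusted p of 0.0736 to 0.112. Of the 4 other methyl-CpG-binding-domain genes tested here, 2 were higher. *mbd6* was at 53.85, 56.77 and 65.84 CPM in mutants against 13.56, 16.27 and 15.50 CPM in wild type (rose by 1.96, SE 0.109, edgeR's adjusted p = 8.6e-06), and *mbd1b* rose by 0.46 (adjusted p = 0.00176).

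**Figure D4:**
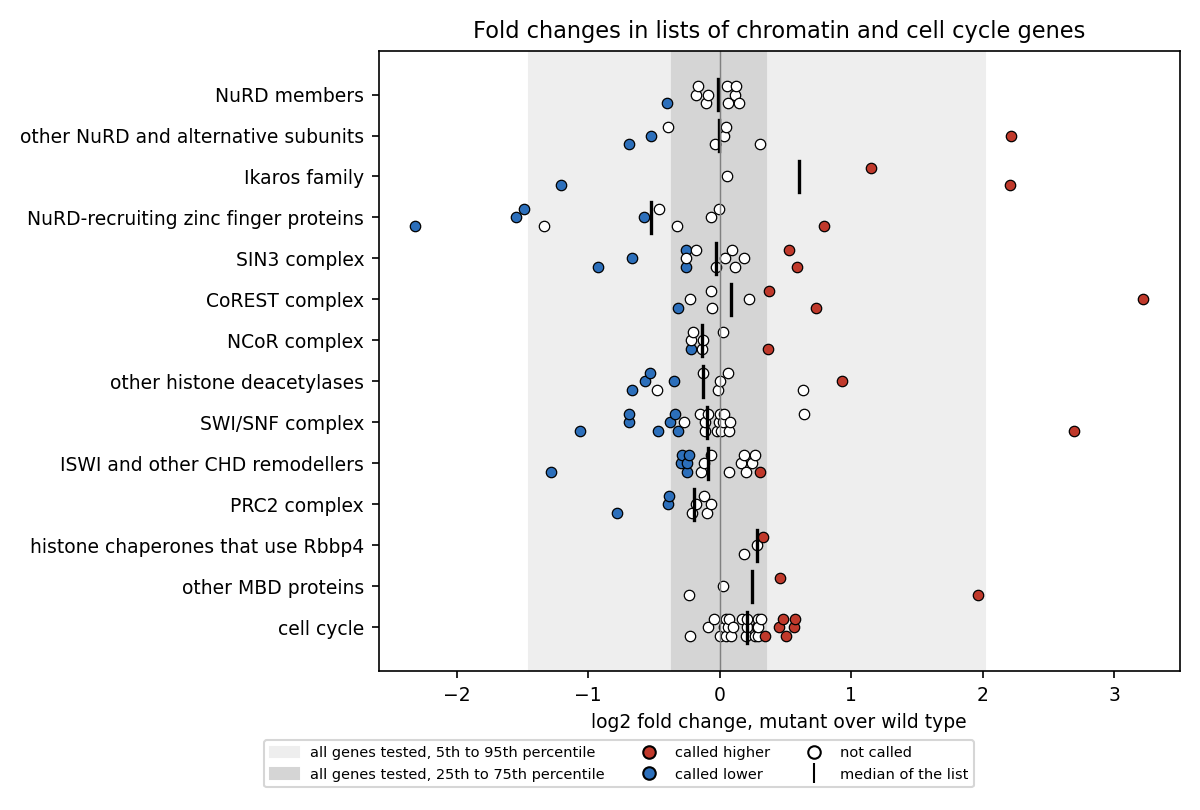
Log2 fold change of every tested gene (points) in each list (rows), with the list median as a vertical bar, called genes in red (higher) or blue (lower) by edgeR at an adjusted p under 0.05, and grey bands for the spread of all genes tested. The 10 NuRD members lie between −0.40 and 0.15 around a median of −0.02, and the zinc finger list, which includes genes under 1 CPM, has its median at −0.52.

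Cell cycle genes were added because *hdac1* and *rbb4* are commonly higher in dividing cells. Of 27 cell cycle genes tested, 7 rose and 0 fell in edgeR (0 lower at an unadjusted p under 0.05, 0 with DESeq2), with a median of 0.20. Among all genes tested 17.5% were called higher and 16.4% lower, and among genes of at least 10 CPM 21.2% and 19.7%. The number of rises was thus near the background share, while the 0 falls lay below it. The median over all genes tested was −0.01, and the list was not tested as a set. *cdk1* was at 72.7 against 49.1 CPM (0.57, adjusted p = 0.00545) and *cdk2* at 18.3 against 12.3 CPM (0.57, adjusted p = 0.00242). Beside these the values of *hdac1* and *rbb4* were 0.06 and 0.12, without a call, and the part of cell division in any member's level was not tested.

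The fall of *mta3* held in each of the 15 alternatives run. Its log2 fold change ranged from −0.51 with library totals alone to −0.35 in a fit without 1 library, with edgeR's or DESeq2's adjusted p at most 0.0123, and no other member was called in any of them.

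**Figure D5:**
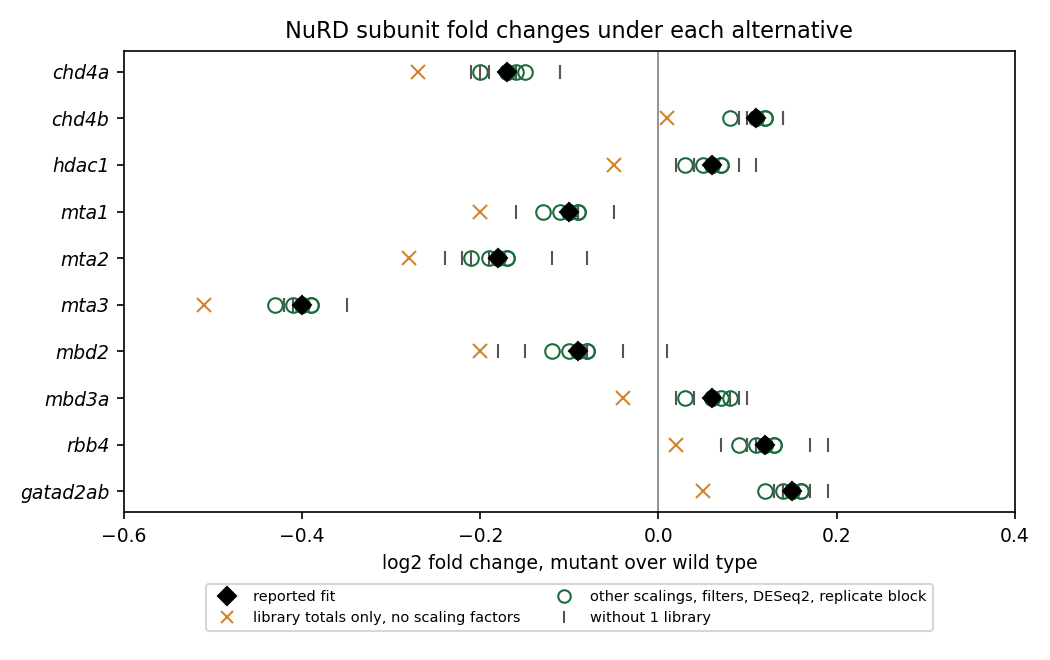
Log2 fold change of each NuRD member (rows) in the reported fit (black diamonds), with library totals as the only scale (orange crosses), under the other scalings, filters, DESeq2 and the replicate block (green circles) and without 1 library (vertical ticks). *mta3* lies between −0.51 and −0.35 throughout, while *hdac1*, *mbd2* and *mbd3a* each cross 0 in 1 alternative.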

How the data were processed

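RNA from 6 larvae was sequenced as stranded, poly-A-selected paired-end libraries. The authors aligned the reads with STAR 2.5.2b-1 to an Ensembl zebrafish reference and counted them per gene with featureCounts 1.6.0.1, and the deposited table holds raw counts without scaling. Defaults were reported, under which featureCounts does not use strand, but the strand setting itself was not stated. All 6 columns were used.

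Members and lists were chosen with earlier results of these data known, and no list was tested as a set. Members were matched by symbol: *chd4a* and *mbd3a* are listed as CHD4 and MBD3 without a paralog letter, *rbb4* as RBBP4 and *gatad2ab* as GATAD2A, each a single row. Names came from a gene list covering 81.8% of rows, and the genes beside a row were compared with the order in the GRCz12tu annotation (at least 3 shared neighbours, 10 on each side in the table and 20 in the annotation). The members shared 11 to 20 such neighbours. Of 345 list genes, 289 were matched, and 1 further gene of the methyl-CpG-binding-domain list is not reported here. No transcript lengths or sequences were used here, so levels are not compared between genes.

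Tests used edgeR 4.0.16 under R 4.3.3: filterByExpr (minimum count 10), trimmed-mean (TMM) scaling factors (0.919 to 1.05), robust quasi-likelihood fits without a covariate, two-sided p adjusted by the Benjamini-Hochberg method over 17828 genes, threshold 0.05. Fold changes are mutant over wild type. Sums and shares were compared by two-sided exact permutation tests over libraries. Members had 542 to 10783 counts per library, which gives a counting error of at most 4.29%. Named genes are the members, *ikzf1*, all other subunits and Ikaros genes, in other lists up to the 2 largest called rises and falls at a mean of at least 5 CPM, and in marker lists up to the 3 most abundant. Genes outside this rule are said to have been named after their values were seen, except the markers at 0. Alternatives were other scalings, filters, DESeq2 1.42.0, a replicate block, an adjusted p under 0.01 and leaving out each library. Only the edgeR fit was tried on simulated counts. Few genes were changed there, far fewer than were called in the data, and no shift of the most abundant genes was planned. The simulation therefore does not test scaling under such a shift.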

Additional observations from a re-analysis of the deposited data

How the results depend on the processing

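Of the 10 members, *mta3* alone was called in each of the 15 alternatives. The members' median log2 fold change was −0.12 with no scaling factors, beside −0.11 for all genes, and there *hdac1* (−0.05), *mbd3a* (−0.04), *rbb4l* (−0.07), *pwwp2b* (−0.06) and *ikzf5* (−0.05) changed sign, as did *mbd2* without mutant replicate 3 (−0.18 to 0.01 over the libraries left out) and *pwwp2a* without mutant replicate 1 (−0.08 to 0.01). The genes called in the other chromatin lists numbered 25 at an adjusted p under 0.01, against 49, and 33 to 46 without 1 library. Of the ISWI and other CHD genes, 3 were lower with DESeq2 and 7 at most with another setting, against 6. At that threshold 3419 genes were called in all, against 6039, and DESeq2 called 6377. Leaving out 1 library moved *mta3* between −0.42 and −0.35, *ikzf1* between 1.98 and 2.33, the *chd4a* share difference between −5.62 and −3.80 percentage points and the *mta3* share difference between −5.28 and −3.41, and the median over members between −0.02 and 0.02. The *gatad2ab* share difference moved between 4.24 and 15.4 points.

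Whether replicate numbers pair the libraries was not settled. Same-numbered mutant and wild-type libraries deviated from their group means together at r of 0.0559, 0.122 and 0.0939, and differently numbered ones at r of −0.160 to 0.0643. Deviations within a group sum to 0, so these r are tied to one another and cannot decide it. With the number as a replicate block, 5370 genes were called in all and 37 in the other chromatin lists, against 49, with 2 against 6 ISWI and other CHD genes lower, 2 against 4 SIN3 genes lower and 1 against 2 higher, and 2 against 3 PRC2 genes lower. In that fit *mta3* stayed the 1 member called (−0.40, edgeR's adjusted p = 0.0102), and, among the genes chosen for naming, *chd5* (2.26, adjusted p = 0.0622), *chd7* (0.31, 0.0689), *chaf1a* (0.33, 0.0694) and *gps2* (−0.22, 0.0831) lost their calls. For *mbd2*, the coefficient of variation between libraries was 13.1% in mutants and 7.88% in wild type, beside a counting error of up to 4.29% per library.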
